A study of Mus musculus with 8 samples.

Results

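This account follows 10 genes of the ovarian granulosa and steroid-producing cell programme (Amhr2, Foxl2, Nr5a1, Inha, Inhba, Star, Cyp11a1, Hsd3b1, Fshr and Lhcgr) in 8 mouse ovarian tumours. They were found by their gene names among the array spots that are not controls, which gave 12 probes for 10 of the 27240 named genes on the array. For 7 of them the signal was well above background (the scanner software's call) in 4 or more of the 8 tumours, and these were tested among 19778 genes. Cyp11a1, Fshr and Lhcgr were not tested. Each tumour came from 1 female C57BL/6JTgMISIIR-TAg mouse, in which the promoter of Amhr2 (formerly MISIIR) drives the SV40 T antigen, and every tumour of both groups carries this transgene. The AZD1480 group (4 mice) received 30 mg/kg of AZD1480, an inhibitor of JAK kinases, and the vehicle group (4 mice) the carrier alone, 0.5% hypermellose with 0.1% Tween 80. Dosing was at tumours of about 500 mm3, and tissue was collected after 6 h. Whole tumour RNA was read, without sorting, on one-colour arrays.

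Granulosa cells surround the oocyte, respond to follicle-stimulating hormone through Fshr, and make oestrogen and the inhibins. The orphan nuclear receptor NR5A1 (steroidogenic factor) activates many genes of this programme, among them those for the steroid enzymes, and FOXL2 is a forkhead factor that maintains granulosa identity. After ovulation the cells become luteal, respond to luteinising hormone through Lhcgr, and make progesterone: STAR brings cholesterol into mitochondria, CYP11A1 cuts its side chain, and HSD3B1 converts the product, pregnenolone, to progesterone. AMHR2 is the receptor of anti-Müllerian hormone, and it is present on granulosa cells and on the mesenchyme around the embryonic Müllerian duct.

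The promoter of Amhr2 is shown because that gene's promoter also drives the transgene. RefSeq's GRCm38.p6 table lists a start, with the bases before it, for 8 of the 10 genes. Nr5a1 and Star were not matched. The bases listed for Inha hold inhibin alpha coding sequence, so that start lies inside the gene. The Inha promoter itself was therefore not searched. The 250 bases before the Amhr2 start, at chr15:102445117-102445366 on the plus strand, are printed with 1 match to the NR5A1 motif CAAGGNCA in capitals. The labels do not state how much of this window the transgene holds.
Amhr2 promoter: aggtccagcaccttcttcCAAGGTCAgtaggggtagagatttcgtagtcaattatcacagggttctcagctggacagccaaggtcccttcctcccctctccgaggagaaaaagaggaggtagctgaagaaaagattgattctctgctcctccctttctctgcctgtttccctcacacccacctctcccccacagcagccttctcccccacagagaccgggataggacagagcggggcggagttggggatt
The match lies at positions -232 to -225 relative to the start. On both strands of the 250-base windows, CAAGGNCA was found in 1 of the 8 genes, Amhr2, and in 6.33% of the 27025 genes of the table. The STAT motif TTCNNNGAA was found in 1 of the 8, Hsd3b1, at -122 to -114, and in 8.13% of genes. The forkhead motif GTAAACA (3.54% of genes) and the cyclic AMP response element TGACGTCA (1.77% of genes) were found in 0 of the 8. For Inha, these counts cover only the window inside the gene.

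Foxl2 is the gene whose probes disagreed, so both probe sequences are shown. They lie in the coding part of this intronless gene on chromosome 9, at chr9:98856894-98856950 (probe A_55_P2037732) and chr9:98856846-98856905 (probe A_55_P2041668) in the mm9 coordinates of the array files. The capitals mark the 12 bases that both probes share.
A_55_P2037732: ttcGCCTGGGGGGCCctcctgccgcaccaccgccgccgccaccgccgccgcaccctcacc
A_55_P2041668: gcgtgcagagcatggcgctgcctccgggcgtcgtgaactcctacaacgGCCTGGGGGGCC
Their GC content was 81.7% and 71.7%. Over the array's 39429 probes, 99.98% had a lower GC content than A_55_P2037732 and 99.86% a lower one than A_55_P2041668. The interval that the array file gives for A_55_P2037732 spans 57 bases of its 60.

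Single tumours stand apart in these data, and the results below are given with and without them. AZD1480 replicate 1 and vehicle replicate 3 were the only tumours in which all 10 genes were well above background. AZD1480 replicate 1 ranked among the 3 highest tumours for 9 of the 10 genes, vehicle replicate 3 for 9 and vehicle replicate 1 for 7. The other 5 tumours ranked there for 0 to 2 genes each. The ranks include the tested Foxl2 probe, which was nearly flat, and some values not well above background. Not every rank is therefore a measured difference. AZD1480 replicate 1 and vehicle replicate 1 were on slide 1, and vehicle replicate 3 on slide 2, which each held 2 arrays of each group and were scanned separately. Between 66.9% and 76.4% of spots were well above background per array, and the number of arrays limits the precision.

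All levels are log2 processed signals minus the array's own 75th percentile, so that a step of 1 is a doubling, and levels of different probes are not compared. Amhr2 was measured by a probe at chr15:102284930-102284989 (mm9) and was well above background in every tumour. Its level was 6.83, 0.62, 0.43 and -0.75 in AZD1480 replicates 1 to 4, and 5.39, 0.55, 1.43 and 0.07 in vehicle replicates 1 to 4. The 2 replicates numbered 1 were far above the other 6 tumours, which lay within -0.75 to 1.43, and the groups overlapped. The highest tumour was 190-fold above the lowest.

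Nr5a1 (chr2:38548180-38548239) separated the tumours in a similar order. Its level was 3.70, -2.31, -2.94 and -2.12 in AZD1480 tumours, and 1.36, -2.31, -0.14 and -3.65 in vehicle tumours. AZD1480 replicate 1 was the highest and vehicle replicates 1 and 3 came next, with overlapping groups and a 163-fold range. In bulk tissue, fewer cells of a type and less RNA per cell cannot be told apart.

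Foxl2 gave 2 patterns with its 2 probes. The brighter probe, A_55_P2037732, which entered the test, had levels of 3.53, 3.35, 3.58 and 3.27 in AZD1480 tumours and 3.63, 3.32, 3.54 and 3.65 in vehicle tumours. That probe was nearly flat, with the 8 tumours inside a 1.30-fold range. The other probe, A_55_P2041668, had levels of -3.80, -5.73, -5.66 and -5.22 in AZD1480 tumours and -5.66, -5.33, -5.40 and -5.47 in vehicle tumours. Here AZD1480 replicate 1 stood above the other 7, as it also did for Amhr2, Nr5a1 and Inha. Both probes were well above background in all 8 tumours, and which of them follows the Foxl2 transcript was not tested.

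**Figure D1:**
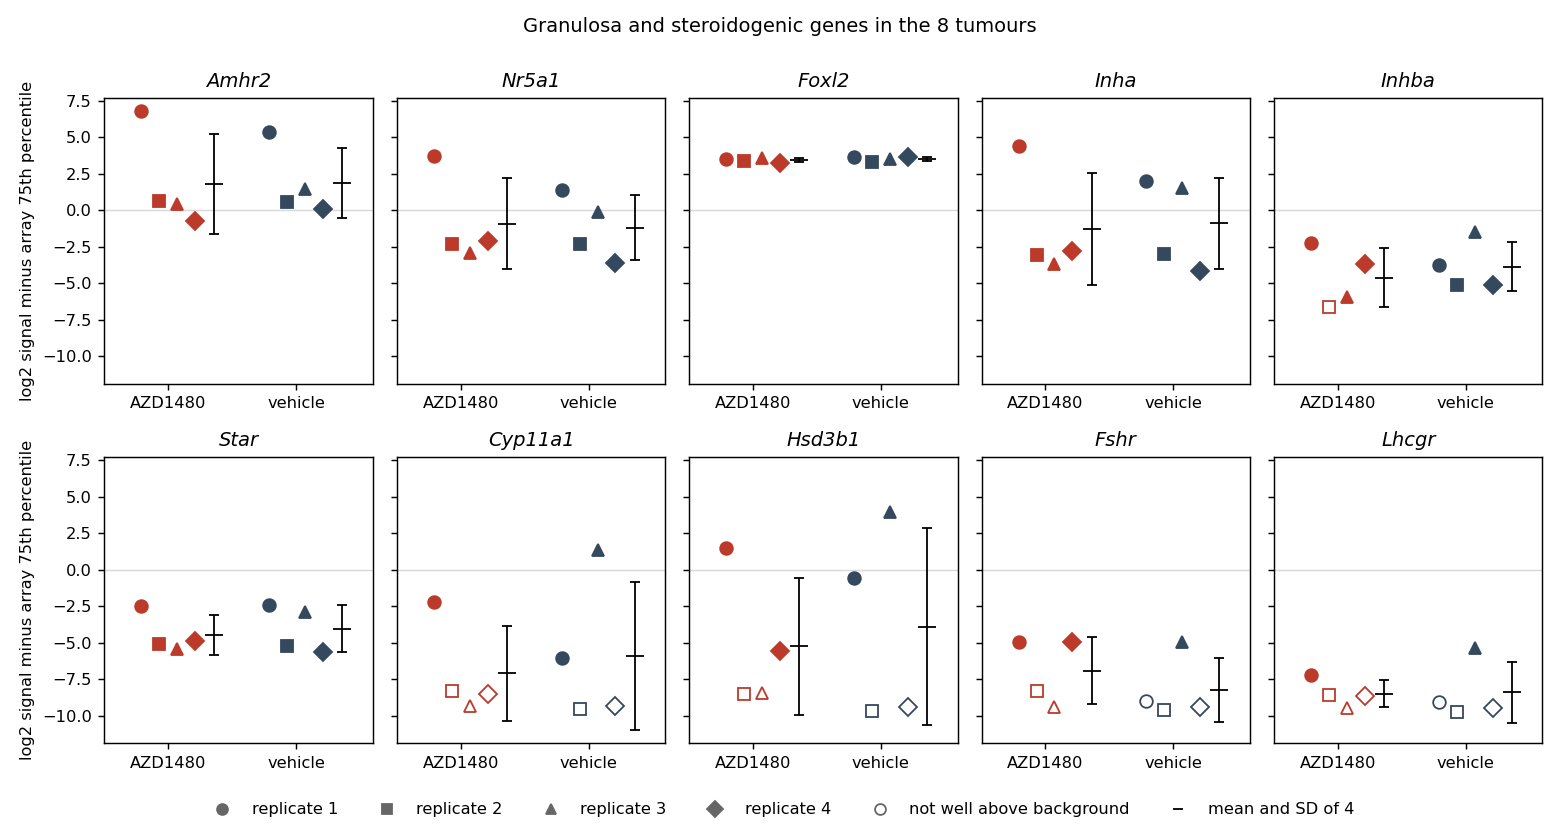
Level of each of the 10 genes (log2 processed signal minus the array's 75th percentile, vertical axis) in 4 AZD1480 and 4 vehicle tumours, with the mean and SD of 4 beside each group and open symbols for spots not well above background. AZD1480 replicate 1 and vehicle replicates 1 and 3 sit high for most genes, while the tested Foxl2 probe stays between 3.27 and 3.65.

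Inha encodes the alpha subunit shared by the inhibins, the hormones that restrain follicle-stimulating hormone release. At chr1:75506675-75506734 its level was 4.44, -3.09, -3.67 and -2.78 in AZD1480 tumours, and 2.00, -2.98, 1.56 and -4.18 in vehicle tumours. Replicate 1 of the AZD1480 tumours and 2 vehicle tumours (replicates 1 and 3) were above 1, and the other 5 were below -2. The range was 392-fold.

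Inhba encodes the beta A subunit, which pairs with itself in activin A and with the alpha subunit in inhibin A. At chr13:16118634-16118693 its level was -2.28, -6.65, -5.94 and -3.65 in AZD1480 tumours, and -3.75, -5.10, -1.50 and -5.12 in vehicle tumours. Vehicle replicate 3 was the highest, AZD1480 replicate 1 came next, and AZD1480 replicate 2 was not well above background. The groups overlapped.

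Star had 2 probes that ran together. The brighter one (A_52_P165654, chr8:26925460-26925519) had levels of -2.49, -5.12, -5.46 and -4.86 in AZD1480 tumours and -2.40, -5.20, -2.90 and -5.65 in vehicle tumours. The other (A_55_P2113141, chr8:26920280-26920339) had levels of -3.14, -6.59, -6.44 and -5.99 in AZD1480 tumours and -3.65, -6.68, -4.05 and -6.48 in vehicle tumours. Its value in AZD1480 replicate 2 was not well above background. Both probes put AZD1480 replicate 1 and vehicle replicates 1 and 3 above the other 5 tumours, in contrast to the pair of Foxl2 probes.

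**Figure D2:**
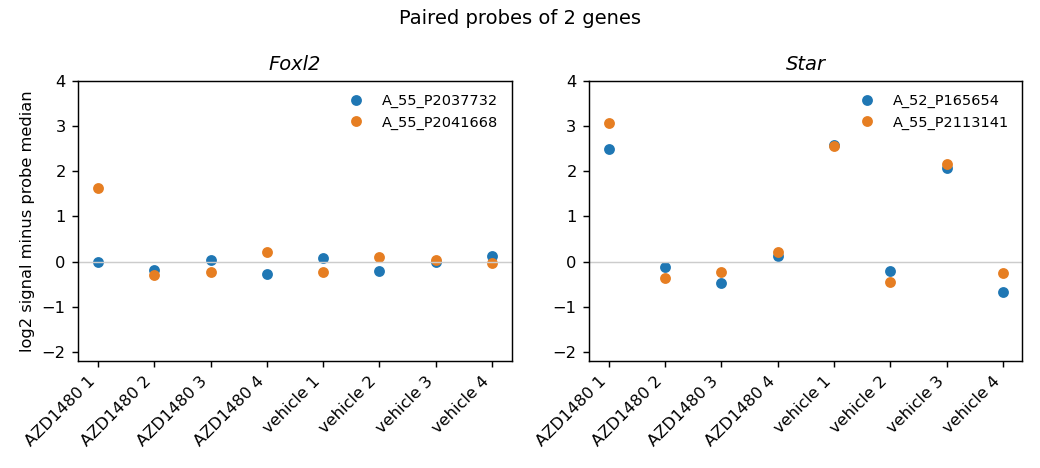
Level of the paired probes of Foxl2 and Star in the 8 tumours, each minus its own median (log2, vertical axis), AZD1480 tumours on the left of each panel. The Star probes run close together, whereas the Foxl2 probes part in AZD1480 replicate 1. Before its median was subtracted, A_55_P2041668 was at -3.80 there, against -5.22 to -5.73 in the other 7.

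Hsd3b1 was high in some tumours of each group and not well above background in others. At chr3:98656127-98656186 its level was 1.52, -8.51, -8.44 and -5.55 in AZD1480 tumours, and -0.58, -9.65, 3.98 and -9.43 in vehicle tumours. It was well above background in 4 tumours, AZD1480 replicates 1 and 4 and vehicle replicates 1 and 3, and the other 4 values are not measured levels. Mouse Hsd3b genes form a cluster of near-identical copies, and which of them gave the signal is uncertain.

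Cyp11a1 was well above background in 3 tumours and was not tested. Its probe (chr9:57874074-57874544) read -2.23, -8.30, -9.34 and -8.55 in AZD1480 tumours, and -6.07, -9.55, 1.36 and -9.36 in vehicle tumours. AZD1480 replicate 1 and vehicle replicates 1 and 3 carried the measured levels, with vehicle replicate 3 the highest.

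The gonadotropin receptors were dim. Fshr (chr17:89384292-89384351) read -4.95, -8.33, -9.38 and -4.98 in AZD1480 tumours, and -8.96, -9.59, -4.96 and -9.41 in vehicle tumours. Only AZD1480 replicates 1 and 4 and vehicle replicate 3 were well above background, and these 3 levels lay within 0.029 of each other. Lhcgr (chr17:89141300-89141359) read -7.25, -8.60, -9.48 and -8.68 in AZD1480 tumours, and -9.10, -9.72, -5.33 and -9.47 in vehicle tumours. It was well above background in AZD1480 replicate 1 and vehicle replicate 3 alone. Fshr was thus not well above background in vehicle replicate 1, a tumour with high Amhr2 and Inha.

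The comparison of AZD1480 with vehicle asks whether JAK inhibition was followed within hours by a change in these genes. No call was made: 0 of the 7 tested genes passed limma's test with Benjamini-Hochberg adjustment over all genes (adjusted p 0.978 to 0.996), and 0 had an unadjusted p under 0.05. Of all 19778 genes, 0% passed (0 genes, smallest adjusted p 0.647, and 0.0582 without AZD1480 replicate 1) and 3.46% had an unadjusted p under 0.05. None of the 10 genes had groups that did not overlap, against 2.62% of all genes. Of the 7, 1 difference was positive and 6 were negative, with a median of -0.38, whereas 56.5% of all genes had a positive and 43.5% a negative difference and the median over all genes was 0.045. A difference of at least 2-fold was seen for 1 of the 7, Hsd3b1, which was lower, and for 0 that were higher, against 5.23% lower and 1.89% higher among all genes.

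The differences were small beside the spread between tumours. Amhr2 averaged 1.78 ± 3.42 in AZD1480 tumours and 1.86 ± 2.42 in vehicle tumours (SD, n = 4 each), a log2 difference of -0.078 with a 95% interval of -4.33 to 4.18. Inha averaged -1.27 ± 3.83 in AZD1480 tumours and -0.90 ± 3.14 in vehicle tumours, a difference of -0.38 (-5.40 to 4.65). For Nr5a1 the difference was 0.27 (-3.61 to 4.15), for Inhba -0.76 (-3.46 to 1.93), for Star -0.44 (-2.60 to 1.72) and for Hsd3b1 -1.33 (-9.68 to 7.03). The tested Foxl2 probe was the exception, averaging 3.43 ± 0.15 in AZD1480 tumours and 3.53 ± 0.15 in vehicle tumours, a difference of -0.10 (-0.45 to 0.25). The Foxl2 probe that was not the brighter had a difference of 0.36 ± 0.42 (SE) when every probe was fitted. Without the filter on dim probes, the differences of Cyp11a1, Fshr and Lhcgr were -1.20 ± 2.65, 1.32 ± 1.39 and -0.094 ± 1.00 (SE), and they rest largely on values not well above background.

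**Figure D3:**
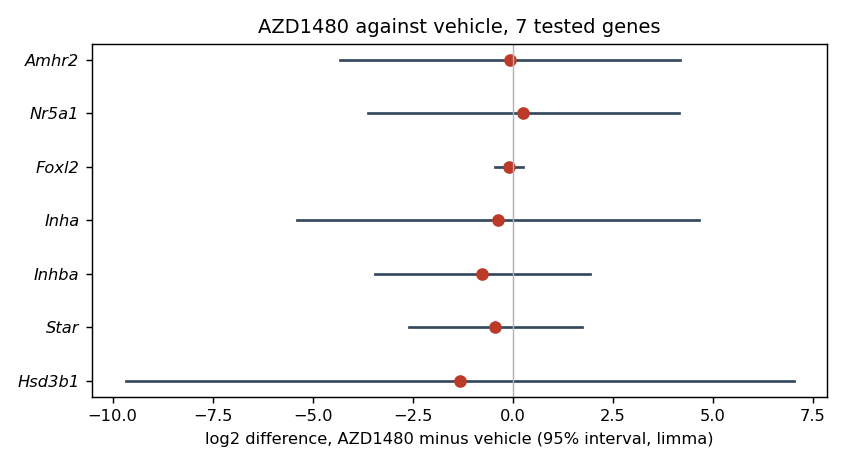
Log2 difference of AZD1480 minus vehicle (points) with limma's 95% interval (lines) for the 7 tested genes, 4 tumours per group. Every interval includes 0, and only that of Foxl2 (-0.45 to 0.25) lies inside a 2-fold change either way.

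The sign of most differences turned with single tumours. Without AZD1480 replicate 1, 0 of the 7 differences were positive and 7 negative, with a median of -1.55, and Amhr2 was at -1.76, Nr5a1 at -1.27 and Inha at -2.28. Without vehicle replicate 3, 4 were positive and 3 negative, with Inha at 0.44, Inhba at 0.028 and Hsd3b1 at 1.31. Without vehicle replicate 1, Amhr2 was at 1.10, Inha at 0.59 and Star at 0.11. Amhr2 and Inha were also positive without AZD1480 replicate 2, 3 or 4 (0.31, 0.37 and 0.77 for Amhr2, 0.23, 0.42 and 0.12 for Inha). Nr5a1 was negative without vehicle replicate 2 (-0.11) or 4 (-0.55). The 2 slides differed in the same manner. Within slide 1 the differences were 0.75 for Amhr2, 1.17 for Nr5a1, 1.16 for Inha and 1.62 for Hsd3b1. Those within slide 2 were -0.91 for Amhr2, -0.64 for Nr5a1, -1.91 for Inha and -4.27 for Hsd3b1. The slide by treatment term called 0 genes in limma (296 at an unadjusted p under 0.05), with adjusted p of 0.979 to 0.981 for the 7. In none of these settings did any of the 7 pass.

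The spread itself was large next to that of other genes. The pooled within-group SD (log2) was 2.96 for Amhr2, 2.70 for Nr5a1, 3.50 for Inha, 1.87 for Inhba, 1.50 for Star and 5.82 for Hsd3b1 as computed, against a median of 0.41 over all genes. The Hsd3b1 SD includes 4 values not well above background, so its size is not exact. Of the 7 tested genes, 5 were in the top 5% (above 1.66) and Star was at percentile 93.2. An SD of at least 1 was found for 6 of the 7 and for 16.6% of all genes. The tested Foxl2 probe was at the other end, with an SD of 0.15 at percentile 5.20.

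**Figure D4:**
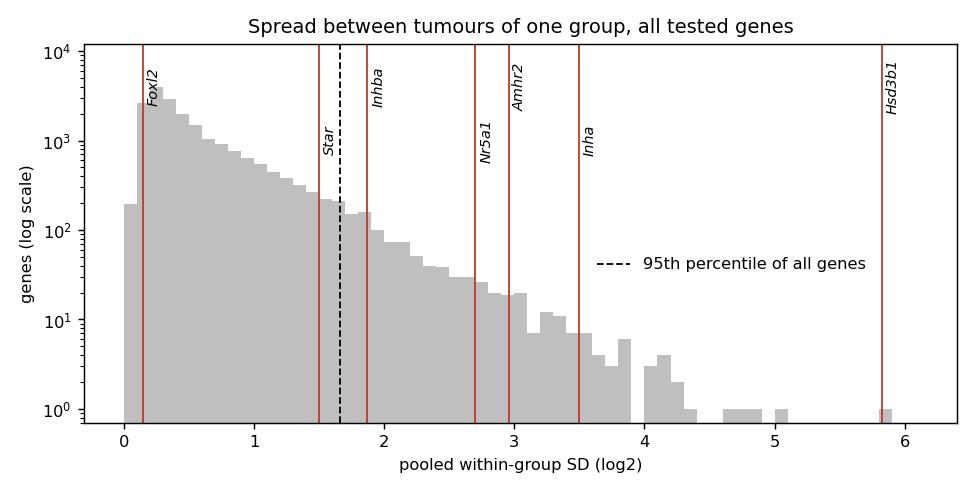
Pooled within-group SD (log2, horizontal axis) of the 19778 tested genes (grey bars, log count axis), with the 7 tested genes as red lines and the 95th percentile (1.66) dashed. Foxl2 lies near the low end at 0.15 and Hsd3b1 at 5.82, a value computed with 4 tumours not well above background.

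How closely 2 genes ran together was described by the SD, over the 8 tumours, of the difference between their log2 levels, which is small when both move by the same amount. These pairs share arrays, slides and scaling, so no test is given. Among the 10 genes the closest pairs were Nr5a1 with Inha (0.93), Amhr2 with Nr5a1 (0.95) and Inhba with Star (1.08). Amhr2 and Inha differed more (1.45), through vehicle replicate 3, where Inha was among the high tumours and Amhr2 was at 1.43. No such value is given for the steroid enzymes Cyp11a1 and Hsd3b1, with 5 and 4 values not well above background. Both were highest in vehicle replicate 3, while Amhr2, Nr5a1 and Inha were highest in AZD1480 replicate 1.

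Among 15455 other named genes, the 3 nearest to Amhr2 were the elastase gene Cela3a (SD 0.50), the ethanolamine kinase gene Etnk2 (0.65) and the Wnt ligand gene Wnt6 (0.69), where the median gene was at 2.77. That median is close to the SD of Amhr2 itself over the 8 tumours (2.74), and the medians below also lie near their genes' own SDs. They reflect the spread of the gene itself and are no yardstick of closeness. Nearest to Nr5a1 were the nucleotidase gene Nt5e (0.59), the defensin gene Defb36 (0.60) and Klhl13 (0.66), with the median gene at 2.52. Nearest to Inha were the cystatin gene Cst8 (0.54), Wfdc10 (0.89) and the neuritin gene Nrn1 (0.90), with the median gene at 3.26. None of these 9 genes was one of the 10. Nearest to Inhba were Tmc5 (0.51), the prolactin receptor gene Prlr (0.79) and Cox8b (0.82), against a median of 1.80. Nearest to Star were Gipc2 (0.50), the splicing regulator gene Esrp2 (0.51) and the glypican gene Gpc3 (0.52), against a median of 1.45. For Hsd3b1 the closest were Acsbg1 (2.27) and the laminin gene Lama1 (2.43), against a median of 5.44, and these values rest partly on signals not well above background. The same limit holds for some genes named above. The lowest levels of Cela3a (-7.59), Cst8 (-8.71), Nrn1 (-8.16), Tmc5 (-8.64) and Cox8b (-7.56) were below -7.46. That was the lowest level of any spot well above background on any array.

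Partners in steroid synthesis were listed beside the 10 genes. Of 12 listed, 10 were tested, 0 rose and 0 fell, 6 differences were positive and 4 negative, and the median was 0.074. Srd5a1, which reduces testosterone and progesterone, was at 0.23 in AZD1480 tumours and 0.81 in vehicle tumours, a difference of -0.58 ± 0.22 (limma adjusted p = 0.974; 1 of the 10 at an unadjusted p under 0.05). The mitochondrial cholesterol-binding protein gene Tspo (0.38 ± 0.27), the oestrogen and cholesterol enzyme gene Hsd17b7 (1.07 ± 0.80, the highest) and Akr1c18, which inactivates progesterone (-1.14 ± 1.13, the lowest), had the next smallest p. Hsd17b7 was at 0.04 in AZD1480 replicate 1, -2.84 to -3.39 in the other AZD1480 tumours and -2.02 to -3.97 in vehicle tumours. Akr1c18 was highest in vehicle replicate 3 (-1.89). The oestradiol-forming enzyme gene Hsd17b1, picked after its values were seen, was well above background on 3 arrays and was at 0.71 in AZD1480 replicate 1 and -2.42 in vehicle replicate 3, with -6.44 to -7.71 in the other 6. Aromatase (Cyp19a1), which makes oestrogen in granulosa cells, was well above background on 2 arrays and was not tested. Cyp17a1, the androgen-forming theca enzyme gene, was at -0.33 to 0.84 in AZD1480 tumours and -0.26 to 0.49 in vehicle tumours, highest in AZD1480 replicate 1. Its pooled within-group SD was 0.42, near the median of all genes (0.41).

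Of 13 genes of activin, inhibin and anti-Müllerian hormone signalling, 12 were tested, 0 rose and 0 fell, 4 differences were positive and 8 negative, and the median was -0.081. Amh, the ligand of AMHR2, was the gene not tested. It was well above background in AZD1480 replicate 1 (-2.85) and vehicle replicate 3 (-5.39) and in 0 of the other 6. The activin-binding protein gene Fst (-1.52 ± 0.78, the lowest), the co-receptor gene Tgfbr3 (-0.37 ± 0.27), the activin receptor gene Acvr2a (-0.33 ± 0.28) and the inhibin beta B gene Inhbb (0.46 ± 0.39, the highest) had the smallest p. Fst was at -1.31 in AZD1480 replicate 1, 0.89 to 2.67 in the other AZD1480 tumours and 2.38 to 2.85 in vehicle tumours, so it was lowest in the tumour where Inha was highest. The signal transducers Smad1, Smad2, Smad3 and Smad5 had differences of -0.11 to 0.14. The median within-group SD of this list was 0.38, below that of all genes.

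Of 10 gonadal transcription factors and follicle-stimulating hormone targets, 9 were tested, 0 rose and 0 fell, 4 differences were positive and 5 negative, and the median was -0.040. Foxo1 (-0.49 ± 0.30), the oestrogen receptor gene Esr2 (0.60 ± 0.59, the highest), the cyclin gene Ccnd2 (-0.59 ± 0.65, the lowest) and Gata6 (-0.34 ± 0.39) had the smallest p. The factors Gata4 and Nr0b1, picked after their values were seen, parted the tumours much as Nr5a1 did. Gata4 was at 3.58, -0.82, -0.75 and -1.07 in AZD1480 tumours, and 1.75, -1.60, 0.18 and -1.43 in vehicle tumours. Nr0b1, a repressor of NR5A1, was at 2.05, -8.43, -9.36 and -6.27 in AZD1480 tumours, and -0.45, -8.63, -3.78 and -9.40 in vehicle tumours. It was well above background in AZD1480 replicates 1 and 4 and vehicle replicates 1 and 3 alone. In both genes AZD1480 replicate 1 was the highest and vehicle replicate 1 the next. Wt1, a factor of gonadal and ovarian surface cells, was at 4.44 to 5.20 in AZD1480 tumours and 4.63 to 5.15 in vehicle tumours, with no tumour standing apart. Of the other tested genes of this list, Gata6 (3.00), Nr5a2 (1.41) and Runx1 (0.51) were also highest in AZD1480 replicate 1. By contrast, Esr2 was highest in AZD1480 replicate 4 (2.28) and Ccnd2 in vehicle replicate 3 (-1.14), and Foxo1 was lowest in AZD1480 replicate 1 (1.11). The signs in all 3 lists leaned on AZD1480 replicate 1. Without it 3 steroid synthesis partners were positive and 7 negative (median -0.19), 2 signalling genes positive and 10 negative (median -0.15), and 1 transcription factor or target gene positive and 8 negative (median -0.65). Without vehicle replicate 3 the medians were 0.13 for the partners, -0.12 for the signalling genes and 0.19 for the transcription factors and targets. In both settings 0 genes of the lists passed.

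Markers of other cells also set single tumours apart, but not alike in AZD1480 replicate 1 and vehicle replicates 1 and 3. The mean level of 6 ciliated cell markers was -4.59 in AZD1480 replicate 1, 1.48 to 1.56 in the other AZD1480 tumours and 1.38 to 1.98 in vehicle tumours, with 5 of the 6 well above background in AZD1480 replicate 1. The oviduct glycoprotein gene Ovgp1 was at -3.52 there, against 5.35 to 6.61 in the other 7 tumours. Vehicle replicate 3 had the highest mean of 9 oocyte markers, -4.16 with 8 of 9 well above background, against -6.97 to -7.76 in AZD1480 tumours and -7.69 to -7.74 in the other vehicle tumours. It also had the highest mean of 5 adipocyte markers, 0.24 against -5.64 to -7.22 in AZD1480 tumours and -4.06 to -6.82 in the other vehicle tumours. All 5 were well above background there, 1 to 3 in AZD1480 tumours and 3 or 4 in the other vehicle tumours. Of the oocyte markers, 2 or 3 were well above background in the other 7 tumours. The sizes of these gaps rest partly on values that are not measured levels. Of the oocyte list, the zona pellucida genes Zp1 and Zp2, and Bmp15 and Nobox, were well above background in vehicle replicate 3 alone. Ddx4 and Oosp1 were so on 2 arrays each and Figla on 0. Zp3, another zona pellucida gene, and Gdf9 were well above background on all 8 arrays and highest in vehicle replicate 3 (-1.56 and -0.51). Ddx4 was highest in AZD1480 replicate 1 (-6.29). The mean of 5 macrophage markers was lowest in AZD1480 replicate 1 (-2.24, against -0.70 to -1.36 in the other AZD1480 tumours and -0.60 to -0.99 in vehicle tumours). The 5 adrenal cortex markers averaged -6.13 to -7.89 in AZD1480 tumours and -7.10 to -7.51 in vehicle tumours. In each tumour 1 to 3 of them were well above background. The 3 Sertoli markers averaged 1.48 in AZD1480 replicate 1 and -0.84 to 0.03 in the other 7 tumours. The Müllerian epithelium list, which holds Pax8, Krt8, Krt18 and Ovgp1, had 7 of 7 genes well above background in all 8 tumours. Its mean was 0.17 in AZD1480 replicate 1, 1.69 to 2.58 in the other AZD1480 tumours and 1.88 to 3.27 in vehicle tumours. It was highest in vehicle replicates 1 (3.27) and 3 (3.03), and lowest in AZD1480 replicate 1. Without Ovgp1 that mean was 0.78 in AZD1480 replicate 1, 1.06 to 1.92 in the other AZD1480 tumours and 1.24 to 2.92 in vehicle tumours. The granulosa list (7 genes) and the luteal and theca list (8 on the array) hold 5 and 4 of the 10 genes, so only their remaining genes add to the values above. Of the granulosa list these are Amh and Cyp19a1, both well above background in AZD1480 replicate 1 and vehicle replicate 3 alone. Of the luteal and theca list they are Cyp17a1, Ptgfr, Prlr and Akr1c18. Their mean was -3.10 in AZD1480 replicate 1, -4.69 to -5.39 in the other AZD1480 tumours, -1.37 in vehicle replicate 3 and -4.83 to -5.36 in the other vehicle tumours. Ptgfr was well above background in AZD1480 replicate 1 and vehicle replicate 3 alone, and Akr1c18 on 6 arrays. These gaps too rest partly on values that are not measured levels. The part of these other cell types in the levels of the 10 genes was not tested.

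**Figure D5:**
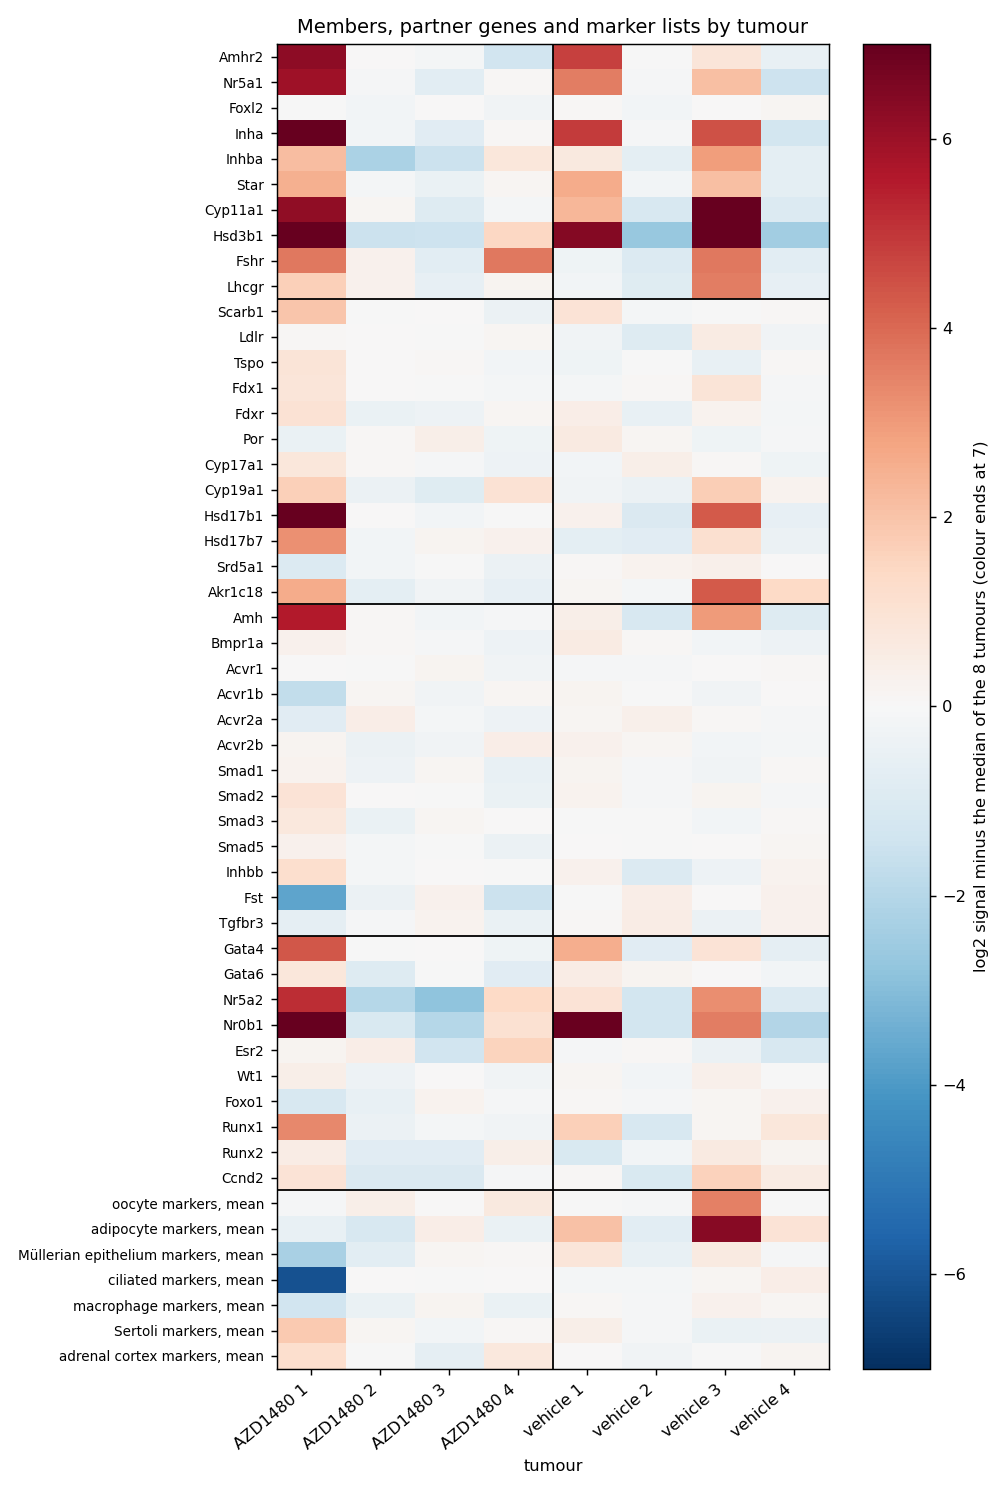
Log2 level minus the median of the 8 tumours (colour, ending at 7 either way) for the 10 genes, the 3 partner lists and the means of 7 marker lists, AZD1480 tumours on the left. AZD1480 replicate 1 is high for most of the 10 genes and lowest for ciliated markers, and vehicle replicate 3 is high for oocyte and adipocyte markers. Before the median was subtracted, these marker means were -4.59, -4.16 and 0.24.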

How the data were processed

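Total RNA of 8 tumours was hybridised to Agilent one-colour mouse arrays (Cy3). Agilent Feature Extraction 9.5.3 is the software that the submitters' processing notes name. It gave each spot a processed intensity that, per the file headers, was background-subtracted within the array and not scaled between arrays. The mean and background intensity deposited beside it served the normexp alternative, and the authors' deposited log2 value table another.

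Log2 processed intensities had each array's 75th percentile subtracted (an intensity of 1587 to 5795), and spots of a probe were averaged. Probes well above background on at least 4 of 8 arrays were kept, and the brightest kept probe stood for a gene. RefSeq accessions named 26055 of 39429 probes. AZD1480 was tested against vehicle in limma 3.58.1 under R 4.3.3 (two-sided, treatment the only term, Benjamini-Hochberg adjusted p under 0.05). Each replicate is 1 mouse, per the labels. Slides, replicate numbers, normalization, filters and left-out arrays were the alternatives.

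The members and gene lists were chosen with earlier results of these data known. Named were the 10 genes, the 3 nearest genes of each tested gene with an SD of at least 1 (1 of them is not reported here), and from each partner list the 4 smallest p with the lowest and highest difference; genes picked later are marked so.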

Additional observations from a re-analysis of the deposited data

Results flagged for a closer look

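Within a group of 4 tumours, a single tumour was set apart when its gap to the nearest other, as a share of the group's range, exceeded Dixon's limit for 4 samples. Of 24 groups examined (12 probes in each treatment group), 5 met it. The limit's rate of about 1 in 20 holds for 4 measured values. Where the other tumours were not well above background, 1 tumour with signal nearly fixes the outcome. The count of 5 is therefore not compared with that rate. In the AZD1480 group, replicate 1 was the high tumour for Nr5a1 (3.70, the other 3 at -2.12 to -2.94), for Inha (4.44, the others at -2.78 to -3.67) and for Cyp11a1 (-2.23, the others at -8.30 to -9.34 and not well above background). In the vehicle group, replicate 3 was the high tumour for Fshr (-4.96, the others at -8.96 to -9.59) and for Lhcgr (-5.33, the others at -9.10 to -9.72), the others again not well above background. The same arrays recur, so these 5 results are not independent.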

How the results depend on the processing

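In every alternative run, 0 genes and 0 of the tested members passed limma's test. These were normexp background correction, quantile and median scaling, no filter, a filter on all 8 arrays, the authors' deposited table, slide as a covariate, each slide alone, the replicate block, every kept probe, and each array left out. Genes at an unadjusted p under 0.05 numbered 685 with all arrays and 451 to 1621 when 1 array was left out (1621 without AZD1480 replicate 3). The number of members in the top 5% of spread was 5 of 7 with all arrays and 4 to 7 over the alternatives, with 7 of 10 without a filter on dim probes and 4 of 7 with the replicate block, within slide 2 or without vehicle replicate 3. The smallest adjusted p of any gene was 0.0582 without AZD1480 replicate 1. The SE of the Hsd3b1 difference was 3.61, and 2.47 with normexp.

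The labels do not state that equal replicate numbers are pairs, and they were not taken as pairs. Same-numbered tumours correlated at 0.36, 0.36, 0.13 and -0.059, 3 of 4 over 0.1. For AZD1480 replicates 1 and 2, but not 3 and 4, the closest vehicle tumour had the same number. Same-numbered tumours also shared a slide, so these correlations cannot separate pairing from slide. With the replicate block 0 genes passed (smallest adjusted p 0.838), 880 had an unadjusted p under 0.05. The block leaves the differences as they are in this balanced design and changes their SE, which was 0.46 for Amhr2 (1.84 without the block), 0.92 for Nr5a1 (1.68), 1.37 for Inha (2.17) and 0.60 for Star (0.93). Both replicates numbered 1 were the high tumours for Amhr2.

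Signs turned within slide 1 for Amhr2 (0.75), Inha (1.16) and Hsd3b1 (1.62), and within slide 2 for Nr5a1 (-0.64). When 1 array was left out, differences ran from -1.76 to 1.10 for Amhr2, -1.27 to 1.12 for Nr5a1, -2.28 to 0.59 for Inha, -1.55 to 0.028 for Inhba, -1.11 to 0.11 for Star and -3.58 to 1.31 for Hsd3b1. The cause was not tested. Signal near background limits Cyp11a1, Hsd3b1, Fshr and Lhcgr.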
